A study of Mus musculus with 6 samples.

Results

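Kruppel-like factors (KLFs) are transcription factors that bind CACCC boxes and GC boxes in DNA through zinc fingers at their C terminus. Their N-terminal regions differ, so that some members mainly activate genes and others recruit the corepressors CtBP or Sin3a. Several are switched on quickly by growth factors, glucocorticoids or shear stress, and in muscle cells members of the family have been tied to quiescence, to myoblast fusion and to the metabolism of the fibre. The messages of 10 members (Klf2, Klf3, Klf4, Klf6, Klf7, Klf9, Klf10, Klf11, Klf13 and Klf15) were followed here by their symbols in a count table of 55376 genes, and all 10 were found and tested.

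The libraries came from muscle stem cells of C57BL/6 mice aged 3 months, isolated by cell sorting and sequenced after SMART-seq2, which copies whole messages from very little RNA. There were 3 groups of 2 libraries, all from this strain and age with no further treatment or allele in the labels. They were CPEB4 RIP (RNA pulled down with an antibody to CPEB4, a protein that binds cytoplasmic polyadenylation elements in messages and regulates their translation), IgG RIP (the same step with a nonspecific antibody) and input (total RNA). The labels do not say how many animals were used or pooled, so the spread between 2 libraries of a group may be technical in part. Assigned counts ranged from 9018323 to 20843042 per library, and the IgG RIP libraries were less alike (Pearson r of log2 CPM across 18054 genes 0.914) than those of CPEB4 RIP (0.989) or input (0.982). All 10 stem cell markers checked were present in every library, with Pax7 at 151 to 290 CPM (read counts scaled to library totals that were adjusted for composition by TMM) and Myod1 at 751 to 1025 CPM. The summed level of these 10 was 47199 to 69441 CPM, most of it from Sdc4 alone (41597 to 61956 CPM). Of the 10 markers 0 were higher and 1 lower over IgG RIP (Vcam1, log2 fold change -0.87). Over input 1 was higher (Sdc4, 0.52) and 3 were lower (Vcam1, -1.18, Calcr, -1.38, and Chodl, -0.52). Of 5 erythroid markers 4 were tested, and 2 of these, Hba-a1 and Hbb-bs, rose over IgG RIP and over input. Alas2 and Slc4a1 did not pass, and Slc4a1, with at most 10 counts per library, had lower fitted values in both. The sum of the 5 came to 624 and 308 CPM with the CPEB4 antibody, 85.0 and 138 with IgG and 103 and 172 in input. The sum of 5 fibro-adipogenic markers was 1200 and 736, 432 and 811, and 278 and 500 CPM in that order of groups, with 0 of 5 higher over IgG RIP and 2 of 5 over input. Over all libraries the sums ran from 23.7 to 45.8 CPM for 6 leukocyte, from 564 to 1020 for 5 pericyte and smooth muscle and from 99.5 to 194 for 6 myofibre markers. Of these, 2 myofibre markers rose over IgG RIP and 1 over input, and 0 leukocyte or pericyte markers passed. Counts of 0 in some libraries were found for 3 leukocyte and 2 erythroid markers. The part of these cells in the values below was not tested. The marker calls above stand beside those over all genes in edgeR's quasi-likelihood test. There 864 genes (4.79%) were higher and 618 (3.42%) lower in CPEB4 RIP than in IgG RIP. Against input 1445 (8.00%) were higher and 849 (4.70%) lower. Scaled by library size alone, with no correction for composition, the counts were 903 higher and 1026 lower over IgG RIP and 1093 higher and 1409 lower over input.

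The genes of 3 members are shown by the 250 bases before their transcription start, since Klf4, Klf9 and Klf13 are the members whose messages passed the test below and KLF proteins bind the boxes in capitals. Capitals mark the CACCC box (CACCC or GGGTG) and the GC box (GGGCGG or CCGCCC), on either strand and including overlaps. The sequences are RefSeq's on GRCm38.p6, 5′ to 3′ on the strand of the gene.
Klf4, chr4:55532476-55532725, minus strand: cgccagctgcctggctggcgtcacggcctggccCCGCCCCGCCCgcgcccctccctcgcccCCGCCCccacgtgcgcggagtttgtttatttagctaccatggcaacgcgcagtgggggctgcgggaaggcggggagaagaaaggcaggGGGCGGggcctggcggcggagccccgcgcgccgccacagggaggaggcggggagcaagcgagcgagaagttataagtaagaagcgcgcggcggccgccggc
Klf9, chr19:23140976-23141225, plus strand: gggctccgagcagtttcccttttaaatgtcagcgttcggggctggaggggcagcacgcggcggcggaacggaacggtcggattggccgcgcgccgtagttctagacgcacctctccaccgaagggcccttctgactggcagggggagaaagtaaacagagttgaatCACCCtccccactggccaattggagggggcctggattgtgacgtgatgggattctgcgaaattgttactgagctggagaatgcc
Klf13, chr7:63938916-63939165, minus strand: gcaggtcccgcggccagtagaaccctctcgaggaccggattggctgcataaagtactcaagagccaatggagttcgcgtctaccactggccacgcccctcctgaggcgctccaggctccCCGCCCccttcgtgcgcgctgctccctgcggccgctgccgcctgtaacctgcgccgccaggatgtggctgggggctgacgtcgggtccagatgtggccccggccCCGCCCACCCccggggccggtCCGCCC

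The Klf4 window held 4 GC boxes and 0 CACCC boxes, that of Klf9 held 0 GC boxes and 1 CACCC box, and that of Klf13 held 3 GC boxes and 1 CACCC box. Of 9 members with a sequence in the table, 8 had a GC box and 6 a CACCC box within these 250 bases, against 32.7% and 52.0% of all 32851 promoters. The GC content of the 9 windows ran from 59.2% (Klf7) to 78.4% (Klf3), against a median of 52.4% over all promoters. These matches describe the genes only, since pull-down of RNA does not measure binding at a promoter.

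Levels were compared between members by FPKM, the authors' fragment counts scaled by gene length and library total. Klf6, Klf9, Klf4 and Klf13 were the abundant members in every library and the other 6 lay well below them. In CPEB4 RIP the order was led by Klf9 (159 and 164 FPKM in replicates 1 and 2), followed by Klf6 (129 and 116), Klf4 (109 and 102) and Klf13 (45.7 and 43.4), with no overlap between neighbours. In IgG RIP it was led by Klf6 (156 and 169 FPKM), then Klf9 (113 and 125), while Klf4 (45.5 and 51.1) and Klf13 (45.0 and 47.5) overlapped. In input Klf6 (145 and 148 FPKM) again came first, then Klf9 (84.6 and 97.98), Klf13 (62.5 and 67.3) and Klf4 (56.7 and 60.7), without overlap. Klf9 thus lay above Klf6 in both CPEB4 RIP libraries and below it in the other 4.

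Among the less abundant members, Klf10, Klf2 and Klf7 overlapped in CPEB4 RIP, at 7.35 to 8.18, 5.19 to 10.2 and 6.16 to 7.74 FPKM. They were separate in IgG RIP (11.1 to 12.7, 3.52 to 4.49 and 7.32 to 7.497 FPKM) and in input (11.4 to 13.2, 2.58 to 3.49 and 7.43 to 7.44 FPKM). Klf11 (2.25 to 3.55 FPKM), Klf3 (0.833 to 1.63) and Klf15 (0.577 to 1.80) had the 3 lowest means over the 6 libraries. Klf2 and Klf11 overlapped in input, as did Klf3 and Klf15. Klf15 rested on 29 to 96 counts per library and Klf2 on 116 to 313, so counting error weighs more on these than on Klf9, which had 7711 to 21101 counts.

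Summed over the 10 genes, the family level was 2955 and 2888 CPM after CPEB4 RIP, 2810 and 2888 after IgG RIP and 2537 and 2747 in input. The order depends on the scaling: as a share of all assigned counts, with no such adjustment, the family took 0.281% and 0.264% after CPEB4 RIP, 0.292% and 0.269% after IgG RIP and 0.286% and 0.283% in input, so that the input libraries are the lowest by CPM but lie above both CPEB4 RIP libraries by share. Klf4 gave 15.3% ± 0.130 of the family's counts after CPEB4 RIP, 7.63% ± 0.193 after IgG RIP and 9.44% ± 0.0461 in input, each as mean ± SD with n = 2. Klf9 gave 37.0% ± 2.04, 29.6% ± 0.512 and 23.2% ± 1.40 in the same order of groups. Klf6 gave 25.6% ± 1.10 after CPEB4 RIP, 37.1% ± 0.0208 after IgG RIP and 34.1% ± 0.980 in input, and Klf13 gave 15.9% ± 0.0125, 18.1% ± 0.338 and 25.8% ± 0.243. For each of these 4 members the CPEB4 RIP shares lay outside the range of both other groups. Shares within a family are tied to each other, and with 2 libraries a group the smallest two-sided p that exact permutation allows is 0.333, so no test was made of them.

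**Figure D1:**
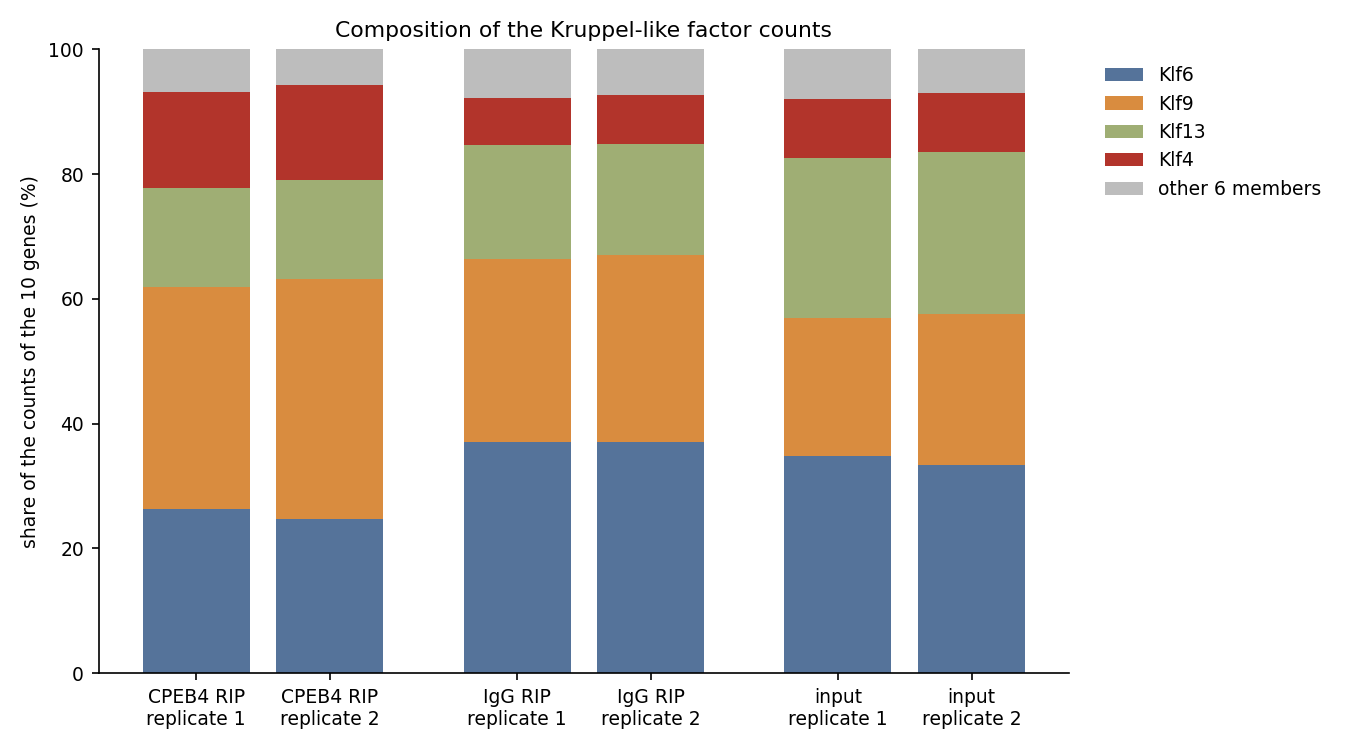
Stacked bars give, for each of the 6 libraries, the share (%) of the counts of the 10 genes taken by Klf6, Klf9, Klf13, Klf4 and the other 6 members together. The Klf4 segment is 15.2% to 15.3% in the CPEB4 RIP libraries, 7.495% to 7.77% in IgG RIP and 9.41% to 9.48% in input.

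Setting CPEB4 RIP against IgG RIP asks which messages the CPEB4 antibody recovered beyond a nonspecific one. Klf4 rose, 0 members fell under the test, and 9 of 10 did not pass. The 1 member called stands beside 8.21% of all 18054 genes called in either direction (4.79% higher and 3.42% lower), so the count of 1 is near the background and is no result about the family. An unadjusted p under 0.05 was found for 4 members, against 26.8% of all genes. The median log2 fold change of the 10 members was -0.17, beside -0.07 over all genes tested. Library values did not overlap for 8 of the members, with CPEB4 RIP above IgG RIP for 3 and below it for 5, where 54.9% of all genes had values that did not overlap (29.4% higher and 25.5% lower). A p that misses the threshold does not show that levels were alike.

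Against input, Klf4 and Klf9 rose, Klf13 fell and 7 members did not pass. The 3 calls of 10 stand beside 12.7% of all genes called in either direction (8.00% higher and 4.70% lower). An unadjusted p under 0.05 was found for 6 members, against 28.1% of all genes. The members' median was 0.20, beside -0.06 over all genes. Values of CPEB4 RIP and input did not overlap for 9 members, 5 of them higher and 4 lower, where 72.1% of all genes did not overlap (34.4% higher and 37.6% lower). Both comparisons use the same CPEB4 RIP libraries, so their values are given side by side below and not as independent evidence. A change in how much of a message is recovered and a change in the number of cells carrying it cannot be told apart in bulk libraries.

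**Figure D2:**
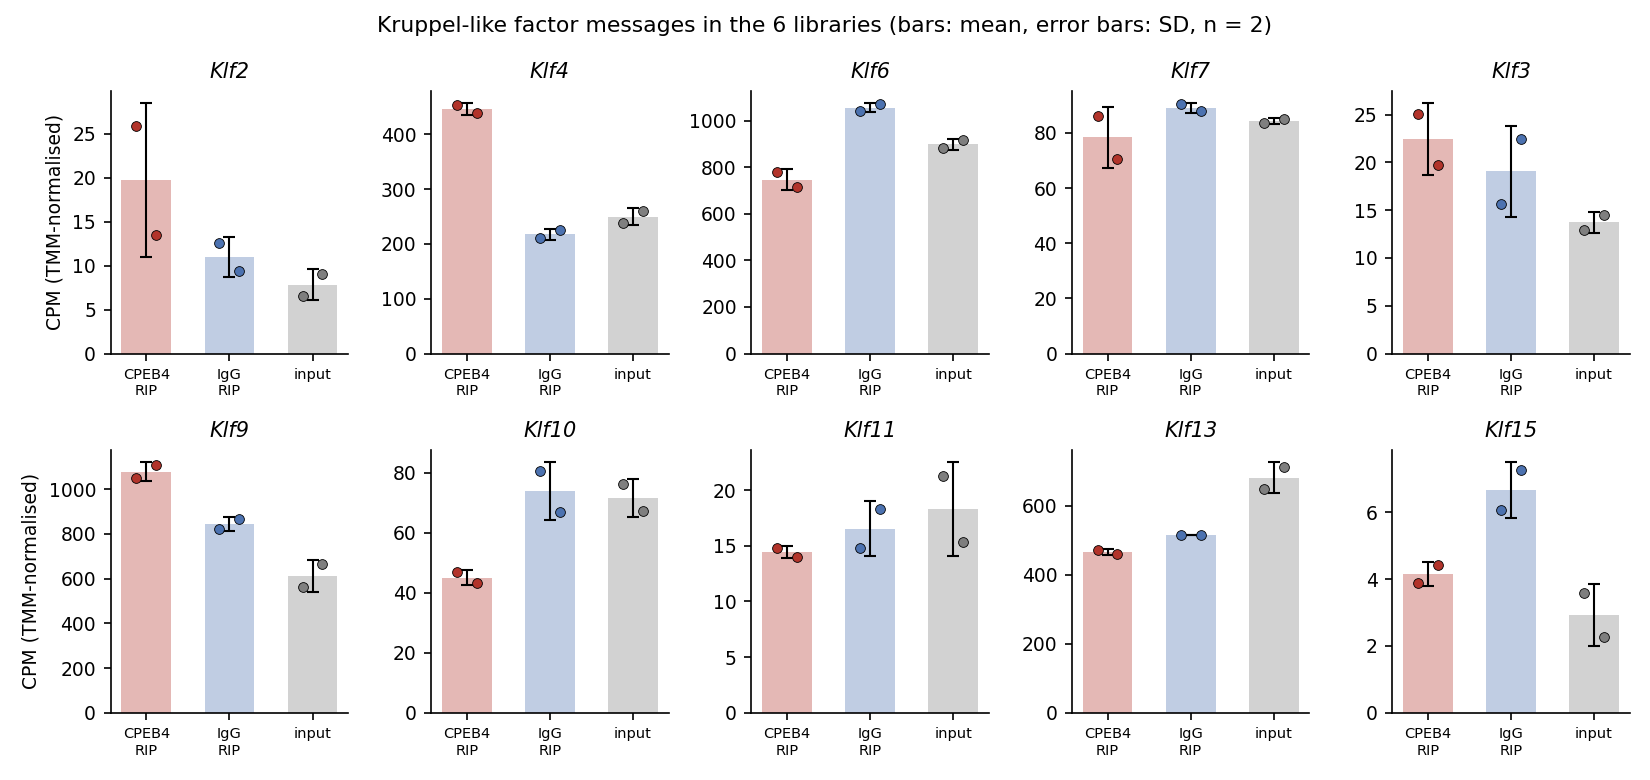
Each panel gives 1 member's level (CPM, TMM-normalised) in CPEB4 RIP, IgG RIP and input, with points for the 2 libraries, bars for the mean and error bars for the SD. The CPEB4 RIP points of Klf4 lie at 438 and 454 CPM, above all 4 others, and those of Klf10 at 43.2 and 46.8 CPM, below all 4 others.

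Klf4, Klf2, Klf6 and Klf7 belong to the branch of the family that mainly activates genes. Klf4, one of the factors used to make pluripotent stem cells, and a gene induced early by serum, was at 454 and 438 CPM after CPEB4 RIP, 211 and 224 CPM after IgG RIP and 239 and 260 CPM in input. Both CPEB4 RIP libraries were above every other library. Its log2 fold change was 1.04 over IgG RIP (SE 0.14, adjusted p = 0.00990), or 2.05-fold, and 0.84 over input (SE 0.14, adjusted p = 0.00952), or 1.79-fold. IgG RIP over input did not pass (-0.20, adjusted p = 0.574), with the IgG RIP libraries the lower ones. Within a library, where scaling drops out, the FPKM of Klf4 was 2.38 and 2.35 times that of Klf13 after CPEB4 RIP, 1.011 and 1.08 times after IgG RIP and 0.907 and 0.902 times in input. Klf13 itself fell over input. Set against Klf9, which rose over input, Klf4 stood at 0.683 and 0.624 times its FPKM after CPEB4 RIP, 0.404 and 0.409 times after IgG RIP and 0.670 and 0.619 times in input, so that this ratio overlapped between CPEB4 RIP and input. Klf4 lies on chromosome 4, 55527137 to 55532475 (GRCm38, the mm10 assembly), and no other RefSeq gene overlaps it.

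Under the 15 other settings the median over all genes ran from -0.15 (library size alone) to 0.31 (without IgG RIP replicate 1) over IgG RIP. The direction of Klf4 was the same under all 15 in both comparisons, with log2 fold changes of 0.96 to 1.22 over IgG RIP and 0.63 to 0.95 over input. Over IgG RIP it did not pass once CPEB4 RIP replicate 2 was left out (1.11, adjusted p = 0.165), a fit in which 0 of the genes in the table passed, or with limma on log2(FPKM + 0.1) (1.12, 0.0724), where again 0 genes passed. Over input it did not pass when the library left out was CPEB4 RIP replicate 1 (0.93, adjusted p = 0.0583) or 2 (0.93, 0.135), or input replicate 1 (0.79, 0.0580), or with limma on log2(FPKM + 0.1) (0.84, 0.0946).

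Genes whose profile over the 6 libraries was most like that of Klf4 were looked for among 7405 genes with a mean of at least 10 CPM, by the root mean square distance of log2 CPM centred per gene. The nearest were the ubiquitin ligase gene Smurf2 (distance 0.04 on the log2 scale), Ssbp3 (0.04), the cyclophilin gene Ppib (0.05), Crtap (0.06), whose protein acts in the modification of collagen, and the metabolite repair enzyme gene Naxe (0.06). Smurf2 was at 50.6 and 50.8 CPM after CPEB4 RIP, 24.5 and 25.4 after IgG RIP and 26.8 and 28.2 in input. Among the other members Klf9 was nearest to Klf4, at 0.32, and Klf10 was farthest, at 0.78.

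Klf2, which endothelial cells express in response to flow and T cells during quiescence, had the largest fitted value over input of the 10 but did not pass. It was at 25.9 and 13.5 CPM after CPEB4 RIP, 12.6 and 9.36 after IgG RIP and 6.58 and 9.06 in input. Replicate 1 of CPEB4 RIP was well above replicate 2, and the lower of them was still above all 4 other libraries. The log2 fold change was 1.33 over input (SE 0.39, adjusted p = 0.0683) and 0.84 over IgG RIP (SE 0.39, adjusted p = 0.216). Without CPEB4 RIP replicate 1 these were 0.91 and 0.51, and without replicate 2 they were 1.80 and 1.30. Without IgG RIP replicate 1 the value over IgG RIP was 1.23, where the median over all genes moved from -0.07 to 0.31. Without IgG RIP replicate 1 or 2 the value over input was 1.38 and 1.39. These libraries enter that comparison through the shared spread, the filter and the scaling. Among the settings with 2 libraries in every group fitted, the value over IgG RIP did not pass. The value over input passed in 3 of them. These were no low-count filter (1.45, adjusted p = 0.00583), the DESeq2 Wald test (1.28, 0.0222) and only the 4 libraries compared (1.29, 0.00381).

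Since endothelial cells are a known source of Klf2, 6 of their markers are given beside it. All 6 were present in every library, and their summed level was 191 and 140 CPM after CPEB4 RIP, 132 and 168 after IgG RIP and 164 and 186 in input, so that the groups overlapped. As for Klf2, replicate 1 of CPEB4 RIP was above replicate 2 for Pecam1 (53.2 and 36.0 CPM), Kdr (26.6 and 19.5), Tie1 (6.71 and 4.52), Emcn (26.0 and 14.8) and the cadherin gene Cdh5, while Tek had 49.6 and 49.0 CPM. This order was not particular to endothelial markers. Replicate 1 was also above replicate 2 in the erythroid (624 and 308 CPM) and fibro-adipogenic (1200 and 736) sums. The same held for pericyte and smooth muscle (749 and 564), myofibre (194 and 148) and leukocyte markers (38.8 and 34.4). The stem cell sum went the other way (63494 and 69441). Cdh5 was at 29.3 and 16.1 CPM after CPEB4 RIP, against 15.7 and 19.5 after IgG RIP and 7.67 and 9.21 in input. Over IgG RIP 0 of the 6 markers passed, and over input Cdh5 rose (1.42, adjusted p = 0.0370) while the receptor gene Tek fell (-0.89, adjusted p = 0.0135). The part of endothelial RNA in the Klf2 values was not tested.

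**Figure D3:**
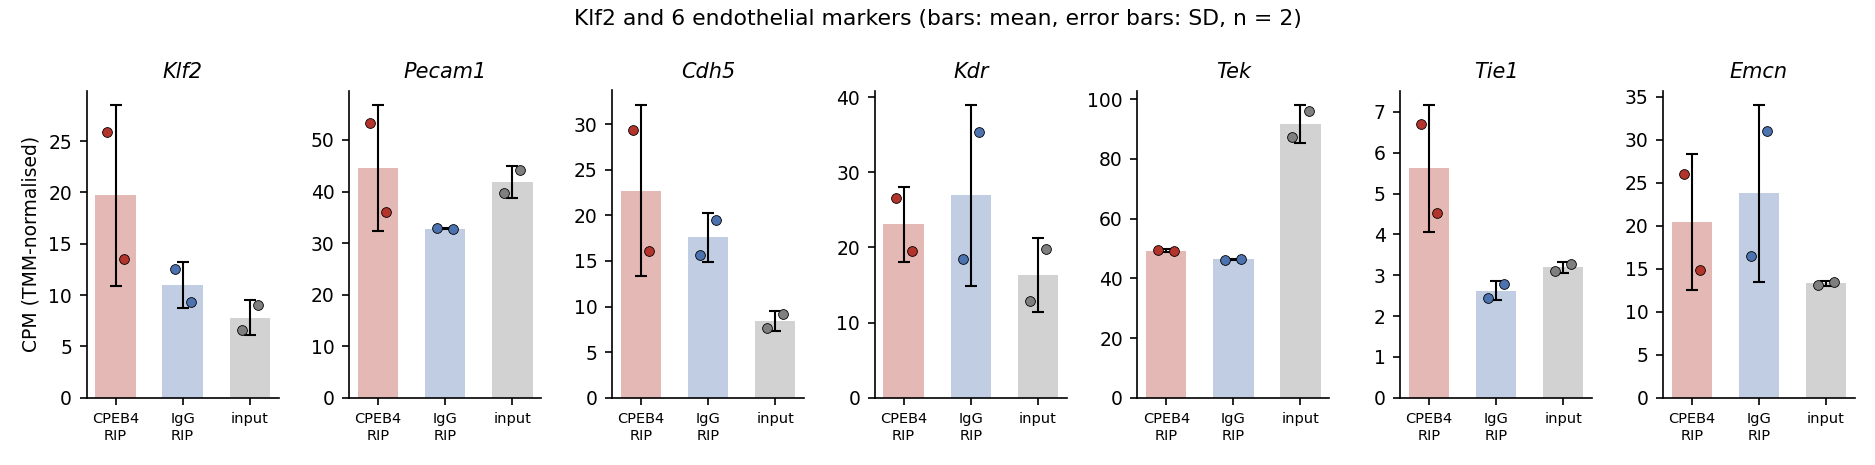
Levels (CPM, TMM-normalised) of Klf2 and 6 endothelial markers are shown by group, with points for the 2 libraries, bars for the mean and error bars for the SD. In CPEB4 RIP the higher point is replicate 1 for Klf2 (25.9 against 13.5 CPM) and for Cdh5 (29.3 against 16.1 CPM), while Tek is at 49.6 and 49.0 CPM.

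Klf6, a broadly expressed factor that was first described as binding a core promoter element, was the member with the highest FPKM in input. It had 778 and 716 CPM after CPEB4 RIP, 1042 and 1070 after IgG RIP and 881 and 916 in input. Both CPEB4 RIP libraries were the lowest of the 6 and both IgG RIP libraries the highest. The log2 fold change over IgG RIP was -0.50 (SE 0.13, adjusted p = 0.0520), just outside the threshold of 0.05, and over input -0.27 (SE 0.13, adjusted p = 0.212). Over IgG RIP it passed with DESeq2 size factors (-0.52, adjusted p = 0.0417), with library size alone (-0.58, 0.0220) and in the DESeq2 Wald test (-0.52, 0.00102). Over input it passed with library size alone (-0.48, adjusted p = 0.0329). Klf6 lies on chromosome 13, 5861489 to 5870393.

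Klf7, which acts in the growth of axons, had 86.2 and 70.6 CPM after CPEB4 RIP, 90.3 and 87.8 after IgG RIP and 83.5 and 85.1 in input. The CPEB4 RIP libraries lay on either side of the input values. Its log2 fold changes of -0.19 over IgG RIP (adjusted p = 0.510) and -0.11 over input (adjusted p = 0.718) did not pass. The first turned to 0.01 without IgG RIP replicate 1, where the median over all genes was 0.31. Of the 4 members of this branch, then, only Klf4 passed over IgG RIP and over input, beside 8.21% and 12.7% of all genes called. The fitted values of the 4 ran in both directions.

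Klf3 is a repressor that works through CtBP. It was at 25.1 and 19.8 CPM after CPEB4 RIP, 15.7 and 22.4 after IgG RIP and 12.9 and 14.5 in input. CPEB4 RIP and IgG RIP overlapped, while both CPEB4 RIP libraries were above input. The log2 fold change was 0.23 over IgG RIP (adjusted p = 0.629) and 0.71 over input (SE 0.28, adjusted p = 0.151), and the value over input passed when only the 4 libraries of that comparison were fitted (0.67, adjusted p = 0.0187) and without IgG RIP replicate 1 (0.76, 0.00377) or 2 (0.77, 0.00394). The message of its corepressor Ctbp1 had 110 and 113 CPM after CPEB4 RIP, 54.9 and 38.1 after IgG RIP and 35.5 and 38.3 in input, and rose over both IgG RIP (1.26, SE 0.21, adjusted p = 0.0172) and input (1.59, SE 0.21, adjusted p = 0.00485). That of Ctbp2 did not pass over IgG RIP (0.56, adjusted p = 0.209) or input (0.72, 0.116).

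Klf9, Klf10, Klf11 and Klf13 form the branch that recruits Sin3a. The Sin3a message itself did not pass over IgG RIP (-0.17, adjusted p = 0.814) or input (-0.05, 0.953). Klf9, a target of the glucocorticoid and thyroid hormone receptors, was the family's most abundant message in CPEB4 RIP. It had 1050 and 1109 CPM after CPEB4 RIP, 822 and 866 after IgG RIP and 563 and 664 in input. The 3 groups did not overlap, with IgG RIP between the others. The rise over input was 0.82 on the log2 scale (SE 0.14, adjusted p = 0.0109), or 1.76-fold. Over IgG RIP the value was 0.35 (SE 0.14, adjusted p = 0.153), and IgG RIP over input stood at 0.46 (SE 0.14, adjusted p = 0.227). Without IgG RIP replicate 1 or 2 the median over all genes moved from -0.07 to 0.31 and 0.13. The Klf9 value over IgG RIP was then 0.50 and 0.53, in fits with 1 IgG RIP library left. Under the settings with 2 libraries in every group fitted, the Klf9 message did not pass over IgG RIP. Over input it did not pass without CPEB4 RIP replicate 2 (0.84, adjusted p = 0.158) or input replicate 1 (0.72, 0.0601), or with limma on log2(FPKM + 0.1) (0.82, 0.101). Klf9 lies on chromosome 19, 23141226 to 23168129, where RefSeq also places Mir1192, which had at most 8 counts in any library.

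Klf13, known from human T cells as an activator of the chemokine gene Ccl5, went the other way. It was at 471 and 460 CPM after CPEB4 RIP, 515 and 515 after IgG RIP and 650 and 713 in input. Every input library was above every pull-down library, whichever antibody was used. The fall relative to input was -0.55 on the log2 scale (SE 0.13, adjusted p = 0.0324), while the value over IgG RIP was -0.15 (SE 0.13, adjusted p = 0.503). IgG RIP over input was -0.40 (SE 0.13, adjusted p = 0.246). Among the settings with 2 libraries in every group fitted, it passed in the DESeq2 Wald test (-0.44, adjusted p = 0.0253). Without IgG RIP replicate 1 it was -0.53, where the median over all genes moved from 0.05 to -0.13. The call of CPEB4 RIP over input did not hold when either CPEB4 RIP library was left out (-0.45, adjusted p = 0.362, for replicate 1 and -0.47, 0.517, for replicate 2), nor either input library (-0.60, 0.0911, and -0.46, 0.174), nor with no low-count filter (-0.44, 0.235), nor with limma on log2(FPKM + 0.1) (-0.54, 0.192). The gene lies on chromosome 7, 63886351 to 63938915. RefSeq places Gm27252 (20 to 109 counts per library) and E030018B13Rik (at most 7) in the same span, and the sources used here leave the strand setting of the counting unstated.

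Klf10 and Klf11 are the TGF-beta-inducible early genes of the family, whose proteins repress the inhibitor gene Smad7. Klf10 had 46.8 and 43.2 CPM after CPEB4 RIP, 80.6 and 67.0 after IgG RIP and 76.1 and 67.1 in input. Both CPEB4 RIP libraries lay below all 4 others, which overlapped each other. The log2 fold change was -0.71 over IgG RIP (SE 0.18, adjusted p = 0.0538) and -0.67 over input (SE 0.18, adjusted p = 0.0509), so both values narrowly missed the threshold. Over IgG RIP it passed with library size alone (-0.80, adjusted p = 0.0476), in the DESeq2 Wald test (-0.73, 0.00885) and without IgG RIP replicate 2 (-0.71, 0.00644). Over input it passed in 8 of 15 other settings, with log2 fold changes of -0.89 to -0.55 over all of them. IgG RIP over input was 0.04 (adjusted p = 0.955). RefSeq places Gm35248 (2 to 46 counts) within the span of Klf10 on chromosome 15, 38291464 to 38300711.

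Klf11 was at 14.8 and 14.0 CPM after CPEB4 RIP, 14.8 and 18.3 after IgG RIP and 21.3 and 15.3 in input. The CPEB4 RIP libraries were below both input libraries but not below both IgG RIP libraries. Its values of -0.20 over IgG RIP (adjusted p = 0.676) and -0.34 over input (adjusted p = 0.453) did not pass in any of 15 other settings.

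Klf15, a glucocorticoid target that controls amino acid and lipid use in muscle and heart, stands apart from these branches. It was at 3.89 and 4.41 CPM after CPEB4 RIP, 6.08 and 7.25 after IgG RIP and 3.59 and 2.26 in input. IgG RIP held the highest levels, and CPEB4 RIP lay between the other groups without overlap. The log2 fold change was -0.68 over IgG RIP (SE 0.45, adjusted p = 0.367), 0.50 over input (SE 0.45, adjusted p = 0.508) and 1.18 for IgG RIP over input (SE 0.45, adjusted p = 0.311). The last of these passed without IgG RIP replicate 1 (1.16, adjusted p = 0.0270). Among the 10 members it alone had fitted values of opposite sign over IgG RIP and over input, and neither passed.

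**Figure D4:**
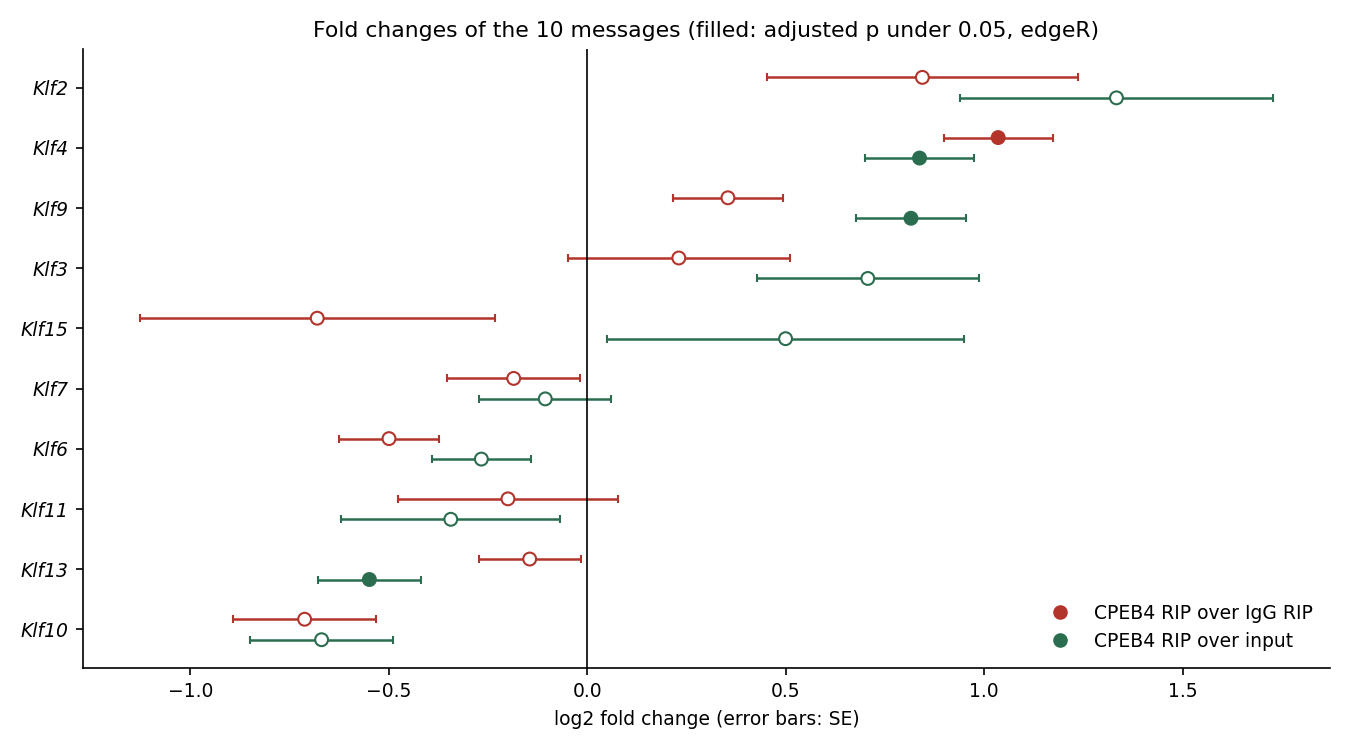
Points give the log2 fold change of CPEB4 RIP over IgG RIP (red) and over input (green) for the 10 members, with SE bars and filled points for an adjusted p under 0.05. Klf4 is filled in both (1.04 and 0.84), Klf9 (0.82) and Klf13 (-0.55) only over input, and Klf15 has values of opposite sign (-0.68 and 0.50).

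IgG RIP over input asks how far the nonspecific pull-down itself departed from total RNA. Of the 10 members 0 passed, as did 0 of 18054 genes (0% called), although 2550 genes (14.1%) had an unadjusted p under 0.05 in edgeR and 706 passed in the DESeq2 Wald test, Klf13 among them. Unadjusted p-values under 0.05 were found for Klf9 (0.0111), Klf13 (0.0149) and Klf15 (0.0329). Library values did not overlap for 8 members, 6 of them higher and 2 lower in IgG RIP, where 42.0% of all genes did not overlap (21.4% higher and 20.7% lower).

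**Figure D5:**
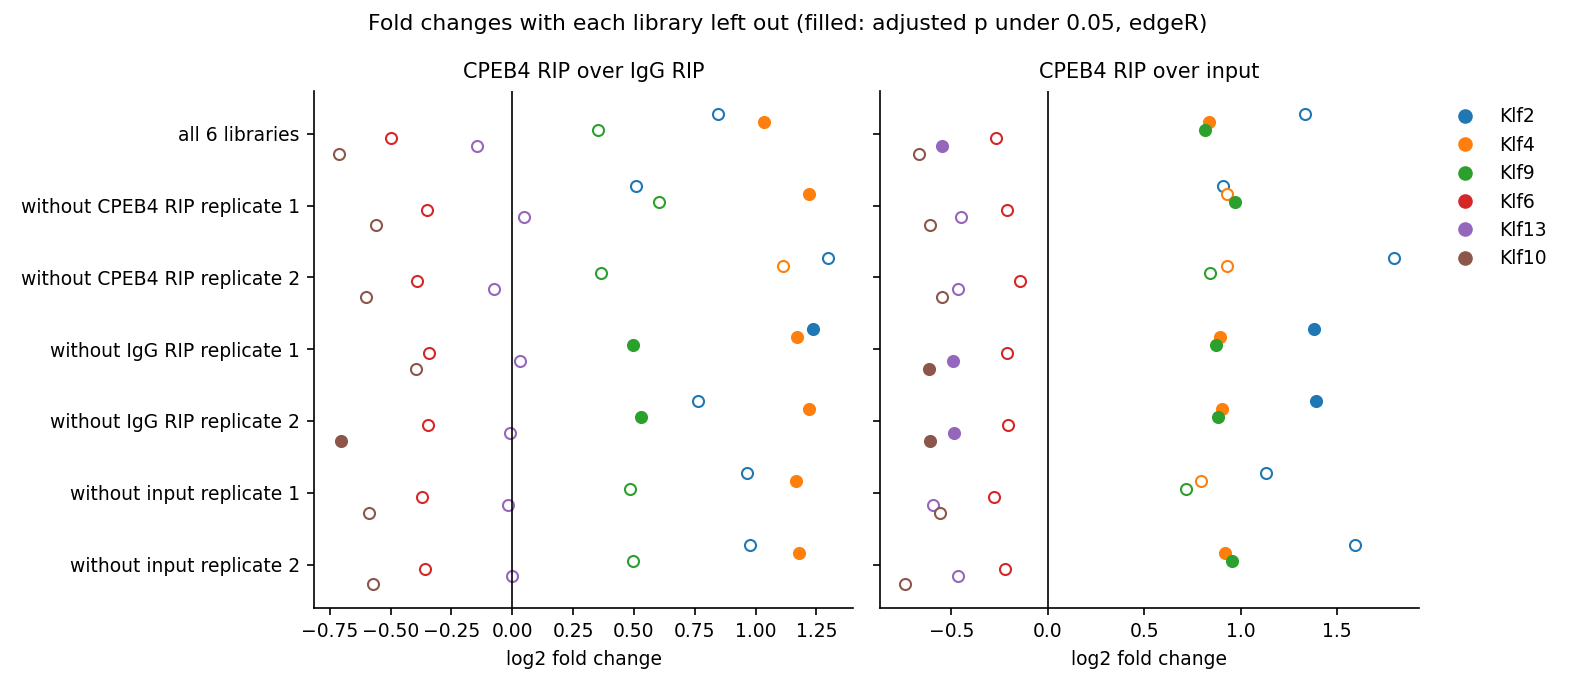
Log2 fold changes of 6 members over IgG RIP (left) and input (right) are shown for the fit to all 6 libraries and for each fit with 1 library left out, with filled points for an adjusted p under 0.05. Klf4 stays between 1.04 and 1.22 over IgG RIP and is filled in all rows but the one without CPEB4 RIP replicate 2, while Klf2 moves between 0.51 and 1.30.

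Of 16 other genes of the KLF and SP families 8 were tested, and the rest had at most 25 counts in any library. Over IgG RIP 1 of the 8 rose, Klf12, a CtBP-dependent repressor like Klf3, and 0 fell, beside 4.79% of all genes higher and 3.42% lower. Klf12 had 42 and 77 counts after CPEB4 RIP, 4 and 3 after IgG RIP and 84 and 40 in input, that is 3.48 and 4.05 CPM, 0.426 and 0.227 CPM, and 4.57 and 3.12 CPM. The log2 fold change was 3.53 over IgG RIP (SE 0.67, adjusted p = 0.0235) and -0.03 over input (adjusted p = 0.978). The IgG RIP libraries were thus low for Klf12, while CPEB4 RIP and input overlapped. Over input 0 of the 8 passed in edgeR, beside 12.7% of all genes called in either direction. For 2 of the 8 the unadjusted p was under 0.05, as it was for 28.1% of all genes.

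Of 15 genes for cofactors and regulators of KLF proteins, 2 rose and 1 fell over IgG RIP, and 3 rose and 1 fell over input, beside 8.21% and 12.7% of all genes called in either direction. Beside Ctbp1, the acetyltransferase gene Kat2b rose over both (1.18, adjusted p = 0.0358, and 0.99, 0.0429). The deacetylase gene Hdac1 fell in both (-0.95, adjusted p = 0.0255, and -0.76, 0.0349), with 40.3 and 35.9 CPM after CPEB4 RIP, 66.2 and 80.3 after IgG RIP and 61.9 and 67.5 in input. Its relative Hdac2 rose over input (1.98, adjusted p = 0.0203) and did not pass over IgG RIP (0.65, 0.322), where the IgG RIP libraries differed from each other, at 20.2 and 51.9 CPM. The list median was -0.14 over IgG RIP and 0.32 over input, beside -0.07 and -0.06 over all genes.

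Of 17 genes for signals upstream of KLF genes, 1 rose over IgG RIP and 5 rose over input, and 0 fell in either, beside 4.79% and 8.00% of all genes higher. Smad4, the common mediator of TGF-beta signals, rose over both, with 83.6 and 99.3 CPM after CPEB4 RIP, 52.0 and 53.8 after IgG RIP and 29.96 and 37.2 in input (0.79, adjusted p = 0.0469, and 1.45, 0.00493). The receptor gene Tgfbr2 (1.10, adjusted p = 0.0156), the glucocorticoid-induced chaperone gene Fkbp5 (0.88, 0.0371) and the transcription factor genes Mef2d (0.85, 0.0432) and Srf (1.54, 0.0419) rose over input. The list medians were 0.13 over IgG RIP and 0.44 over input, beside the same -0.07 and -0.06.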

How the data were processed

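RNA was measured in 6 libraries, with 2 for each pull-down antibody (CPEB4, IgG) and 2 for input. The deposited counts are raw reads per gene symbol, with HISAT2, featureCounts and the mm10 build named in the submitters' processing notes. Versions, annotation, strand setting and the treatment of reads with several matches are unstated in the sources used here. The second deposited table holds FPKM values made by the authors, used to compare levels between genes; the library total behind them is not given either.

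The count model was edgeR 4.0.16 (R 4.3.3), after filterByExpr (minimum count 10, minimum total 15) had left 18054 genes, with TMM scaling. All 6 libraries entered 1 quasi-likelihood fit by group (3 residual degrees of freedom). Tests were two-sided and adjusted over the whole table by Benjamini-Hochberg, at a threshold of 0.05. SE is the absolute log2 fold change over the square root of F. Replicates differed by more than sampling noise (chi-square per degree of freedom 8.66 to 29.7). The fit was tested on simulated data. Alternatives were DESeq2 1.42.0, limma 3.58.1 on log2(FPKM + 1) and log2(FPKM + 0.1), other scalings and filters, a replicate block and each library left out. Symbols were matched to RefSeq on GRCm38 for positions. PCR reads carry no molecular identifiers, so depth limits counting error only. The 10 members and the gene lists were chosen with earlier results of these data known; all members and each listed gene that passed may be named.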

Additional observations from a re-analysis of the deposited data

How the results depend on the processing

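With 2 libraries per group, calls depended on the setting more than directions did. Of the recomputed log2 fold changes of single members over the 3 comparisons, 380 kept their direction and their side of the threshold, 31 newly passed, 15 no longer passed and 24 changed sign. Over IgG RIP the number of genes called was 2428 with no low-count filter, 2892 in the DESeq2 Wald test, 973 with only the 4 libraries compared, 0 with limma on log2(FPKM + 0.1), 762 with limma on log2(FPKM + 1) and no filter, and 0 to 7710 with each library left out. The members called there, 1 in the fit described, numbered 2 with DESeq2 size factors (Klf4, Klf6), 3 with library size alone and in the DESeq2 Wald test (Klf4, Klf6, Klf10), 0 with limma on log2(FPKM + 0.1) and 0 to 3 with a library left out. Over input the genes called were 3479 in the DESeq2 Wald test, 7340 with only the 4 libraries compared, 0 with limma on log2(FPKM + 0.1), 1523 with limma on log2(FPKM + 1) and no filter, and 117 to 7966 with a library left out. The members called there, 3 in the fit described, were 5 with library size alone and in the DESeq2 Wald test, 6 with only the 4 libraries compared, 0 with limma on log2(FPKM + 0.1) and 0 to 6 with a library left out. For IgG RIP over input the genes called were 457 with no low-count filter, 706 in the DESeq2 Wald test, 1, 10 and 32 with limma (pseudocount 1, pseudocount 0.1, no filter) and 0 to 6657 with a library left out, and the members called were 1 in the DESeq2 Wald test and 0 to 2 with a library left out. Where a left-out library leaves 1 in its group, that library is assumed to vary like the other groups. The cause of the other shifts was not tested.

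Replicate numbers are shared between groups, but the labels do not say what a number marks, and the deviations of same-numbered libraries correlated across genes at 0.12 between the pull-downs, at -0.03 between CPEB4 RIP and input and at 0.08 between IgG RIP and input. With the replicate number as a block 1850 genes were called over IgG RIP, 2615 over input and 25 for IgG RIP over input. The block moved the members called over IgG RIP to 3 (Klf4, Klf6, Klf10), over input to 4 (Klf4, Klf9, Klf10, Klf13) and left 0 for IgG RIP over input.

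Signs changed only for Klf7, Klf10, Klf11 and Klf13. Where they changed, the fit to all 6 libraries had given log2 fold changes from -0.20 (Klf11 over IgG RIP) to 0.08 (Klf7, IgG RIP over input). Over input, Klf7 was 0.0061 with no low-count filter. For IgG RIP over input, Klf7 was -0.052 with library size alone, -0.0017 with only the 4 libraries compared, -0.0048 with limma at a pseudocount of 1 (with and without the filter) and -0.0054 at 0.1. Klf10 was -0.087, -0.037, -0.041 and -0.044 under the same settings. With a library left out, over IgG RIP Klf7 ran from -0.13 to 0.012, Klf11 from -0.16 to 0.10 and Klf13 from -0.076 to 0.048. Klf7 over input ran from -0.14 to 0.10, and for IgG RIP over input Klf7 ran from -0.064 to 0.093 and Klf10 from -0.22 to 0.10. Library size alone moved the median of all genes by -0.22 over input, -0.08 over IgG RIP and -0.13 for IgG RIP over input. Leaving out IgG RIP replicate 1 moved it by 0.38 over IgG RIP and by -0.18 for IgG RIP over input. Without IgG RIP replicate 2 or CPEB4 RIP replicate 1 it moved by 0.20 and 0.17 over IgG RIP.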

Other observations

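Genes reported elsewhere as targets of KLF proteins were listed without regard to whether these cells use them. Of 16 such genes 1 rose and 1 fell over IgG RIP, and 2 rose and 0 fell over input, beside 8.21% and 12.7% of all genes called in either direction. The list medians were -0.10 and 0.20 (log2), beside -0.07 and -0.06 over all genes. The cell cycle inhibitor gene Cdkn1c was at 23.0 and 21.5 CPM after CPEB4 RIP, 12.2 and 9.44 after IgG RIP and 4.13 and 6.40 in input, and rose over input (2.09, SE 0.33, adjusted p = 0.00839 by edgeR). The receptor gene S1pr1 also rose over input (1.05, SE 0.22, adjusted p = 0.0236), with 143 and 99.6 CPM after CPEB4 RIP, 67.2 and 84.5 after IgG RIP and 54.9 and 62.1 in input. Over IgG RIP the glucose transporter gene Slc2a4 rose (adjusted p = 0.0381), with 18 and 28 counts after CPEB4 RIP, 0 and 0 after IgG RIP and 22 and 11 in input. Taking 3 counts per IgG RIP library as the floor, its mean in CPEB4 RIP was 5.42-fold that floor. This figure leaves out the spread between libraries, so it is no strict bound. Over input Slc2a4 did not pass (0.52, adjusted p = 0.741 by edgeR). The atrophy-related ubiquitin ligase gene Fbxo32 fell over IgG RIP (-1.66, SE 0.36, adjusted p = 0.0344), at 4.06 and 5.78 CPM after CPEB4 RIP, 12.8 and 18.4 after IgG RIP and 7.99 and 7.73 in input, and its value over input did not pass (-0.67, 0.261).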
